A study of Mus musculus with 12 samples.

Results

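Ihh, Shh, Bmp2, Bmp4, Bmp7, Bmpr1a, Id1, Id3, Smad6 and Smad7 are 10 genes of the Hedgehog and BMP signalling pathways, and their transcripts were followed in mouse colonic organoids that carry or lack the aryl hydrocarbon receptor (AhR). Members were found by matching the Ensembl identifier of each row to the gene symbol, which gave 10 of the 48795 genes in the table. Of these, 9 had 10 or more normalised counts in 3 or more libraries and were tested, and Shh did not. A normalised count is the number of reads of a gene divided by a scaling factor for its library.

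Organoids are epithelial structures grown from isolated crypts in a gel, here from colon of the C57BL/6 background. Total RNA of 12 cultures was sequenced, with 3 libraries for each of 4 groups. The wild-type (WT) and AhR-deficient (KO) organoids were each kept in WENR medium, which supplies EGF, Noggin, R-spondin-1 and Wnt-3A and is called the stem cell condition here, or moved for 3 days to ENR medium, which lacks Wnt-3A (the differentiated condition). Noggin, a protein that binds BMP ligands and keeps them from their receptors, was therefore present in all 4 groups, and the values below describe BMP pathway transcripts under a BMP inhibitor. The labels give neither the kind of AhR allele nor a separate animal or culture for each library, so p-values measure the spread between these libraries, which may be technical.

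In the intestine, epithelial cells near the lumen make Indian hedgehog, which is received mainly by the mesenchyme beneath them. BMP ligands made by the mesenchyme and by mature epithelial cells bind type I receptors such as Bmpr1a, which phosphorylate Smad proteins, and these switch on targets such as the Id genes. Smad6 and Smad7 are themselves induced by the pathway and restrain it. BMP activity is known to be low at the crypt base, where stem cells divide, and high where cells mature.

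Libraries held 25.1 to 99.0 M reads assigned to genes. Reads of Cyp1b1, an enzyme gene switched on by AhR, were scarcer in the libraries labelled KO, with normalised counts of 269 to 571 in KO stem against 7479 to 8502 in WT stem and of 13.0 to 20.6 in KO differentiated against 574 to 680 in WT differentiated. Ahr itself was counted over the whole gene and was higher in the KO libraries (2503 to 2831 against 1746 to 1909 in stem, 3110 to 3824 against 2127 to 2260 in differentiated). The kind of allele is not given, so the count of Ahr does not check the genotype. All 7 epithelial markers had reads in every group. The summed count of 14 fibroblast and muscle markers reached 22308 in WT stem library 1 and 646 in the third KO stem library, and lay between 56.5 and 170 in the 10 others. Results of the 10 genes that rest on these libraries are given with and without them. For the other pathway genes this is done for the counts over all lists together and for some named genes. Calls of other genes in these lists may also turn on them. The summed counts of immune, endothelial and glial markers did not pass 7.17, 27.3 and 15.7 in any library. In such bulk libraries, fewer cells of a type and less RNA per cell cannot be told apart.

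Ihh (ENSMUSG00000006538) lies on the minus strand of chromosome 1 at 74945315 to 74951672, and Bmp4 (ENSMUSG00000021835) on the minus strand of chromosome 14 at 46383520 to 46390669, both in GRCm38. These were the 2 members whose level differed between genotypes past the threshold in both culture conditions, one lower and one higher in KO, so the 250 bases before their RefSeq start (GRCm38.p6) are shown. They run 5′ to 3′ along the gene's strand, at chr1:74951673-74951922 and chr14:46390670-46390919. Capitals mark GCGTG, the core of the site bound by AhR with its partner, or CTTTG, the core of the site bound by Tcf factors of the Wnt pathway, read on either strand.
Ihh: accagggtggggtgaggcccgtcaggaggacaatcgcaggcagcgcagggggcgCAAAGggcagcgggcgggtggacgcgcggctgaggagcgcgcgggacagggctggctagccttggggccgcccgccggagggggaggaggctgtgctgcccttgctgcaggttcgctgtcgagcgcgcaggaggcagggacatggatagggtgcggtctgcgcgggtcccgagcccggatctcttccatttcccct
Bmp4: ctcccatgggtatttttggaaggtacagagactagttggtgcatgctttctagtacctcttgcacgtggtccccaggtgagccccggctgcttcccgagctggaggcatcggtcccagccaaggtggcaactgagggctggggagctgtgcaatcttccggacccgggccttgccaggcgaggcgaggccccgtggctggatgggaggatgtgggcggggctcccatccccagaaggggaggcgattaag
The Ihh window held no GCGTG and 1 CTTTG, read on the other strand, and the Bmp4 window held neither. Over the 32851 promoters of the RefSeq table, 28.2% held GCGTG and 48.6% held CTTTG in a window of this length. GTCT, a short element bound by Smads, was found 1 time in each window and in 82.9% of all windows. The GC content was 72.0% for Ihh and 63.2% for Bmp4, beside a median of 52.4%. A match of letters is a description of the window and shows no binding.

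Ihh, the Hedgehog ligand of the gut epithelium, was scarce with Wnt-3A, abundant without it, and lower in KO than in WT in both conditions. Its normalised counts were 31.0, 21.1 and 28.9 in WT stem and 4.85, 2.94 and 8.14 in KO stem. The 3 WT libraries all stood above the 3 KO libraries, although only 4 to 25 reads lay behind each of these 6 values. The mean was 5.31 in KO against 26.96 in WT, a 5.08-fold lower level, and the log2 change was −2.21 ± 0.37 (SE, n = 3 libraries a group, adjusted p = 0.0057).
Without Wnt-3A, Ihh stood at 1908, 1267 and 1874 in WT and at 309, 605 and 798 in KO. Again the groups did not overlap, with the highest KO library below the lowest WT library. The KO mean was 2.95-fold lower (570 against 1683, log2 change −1.64 ± 0.37, adjusted p = 0.0090). From stem to differentiated, Ihh rose 62.4-fold in WT (log2 change 5.91 ± 0.37, adjusted p = 6.76e-08) and 107-fold in KO (6.48 ± 0.37, adjusted p = 5.20e-08). These 4 calls were kept in every alternative (23 for each KO comparison and 24 for each differentiation comparison), including without WT stem library 1 (KO against WT in stem −2.11 ± 0.42, adjusted p = 0.0139).

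The level of Ihh moved with the markers of absorptive colonocytes (Krt20, Car1, Aqp8, Slc26a3, Guca2a and Clca4a). Their summed normalised count was 490 to 755 in WT stem, 87.3 to 133 in KO stem, 141350 to 196770 in WT differentiated and 18102 to 51473 in KO differentiated, the same order of groups as for Ihh. In differentiated organoids 6 of the 6 markers were called lower in KO (median log2 change −2.49), beside 13.9% of all genes (median 0.02). In stem organoids 4 of the 6 markers were called lower in KO (median −1.92), beside 3.09% of all genes (median −0.04). Their part in the Ihh difference was not tested. The genes whose log2 level was most like that of Ihh over the 12 libraries, among 11566 compared, were Tmem236 (Pearson r = 0.997), Guca2a (r = 0.996) and Car1 (r = 0.996). The points fall into 4 groups of libraries, so these values include the differences between the groups. Car1, a carbonic anhydrase of colonocytes, had means of 173 in WT stem, 14.3 in KO stem, 84450 in WT differentiated and 18520 in KO differentiated.

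Shh (ENSMUSG00000002633, chromosome 5, 28456815 to 28467256, minus strand), the other Hedgehog ligand, was near the limit of detection. It had 1 read in WT differentiated library 1, 2 reads in KO differentiated library 3 and none in the other 10 libraries. A count of 0 allows up to 3 reads, or a normalised count of 1.62 to 6.81 depending on the library, and covers counting error only. Its exons overlap those of 9530036O11Rik and Gm26894 on the opposite strand, and the use of strand in the counting is not given in the sources used here.

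**Figure D1:**
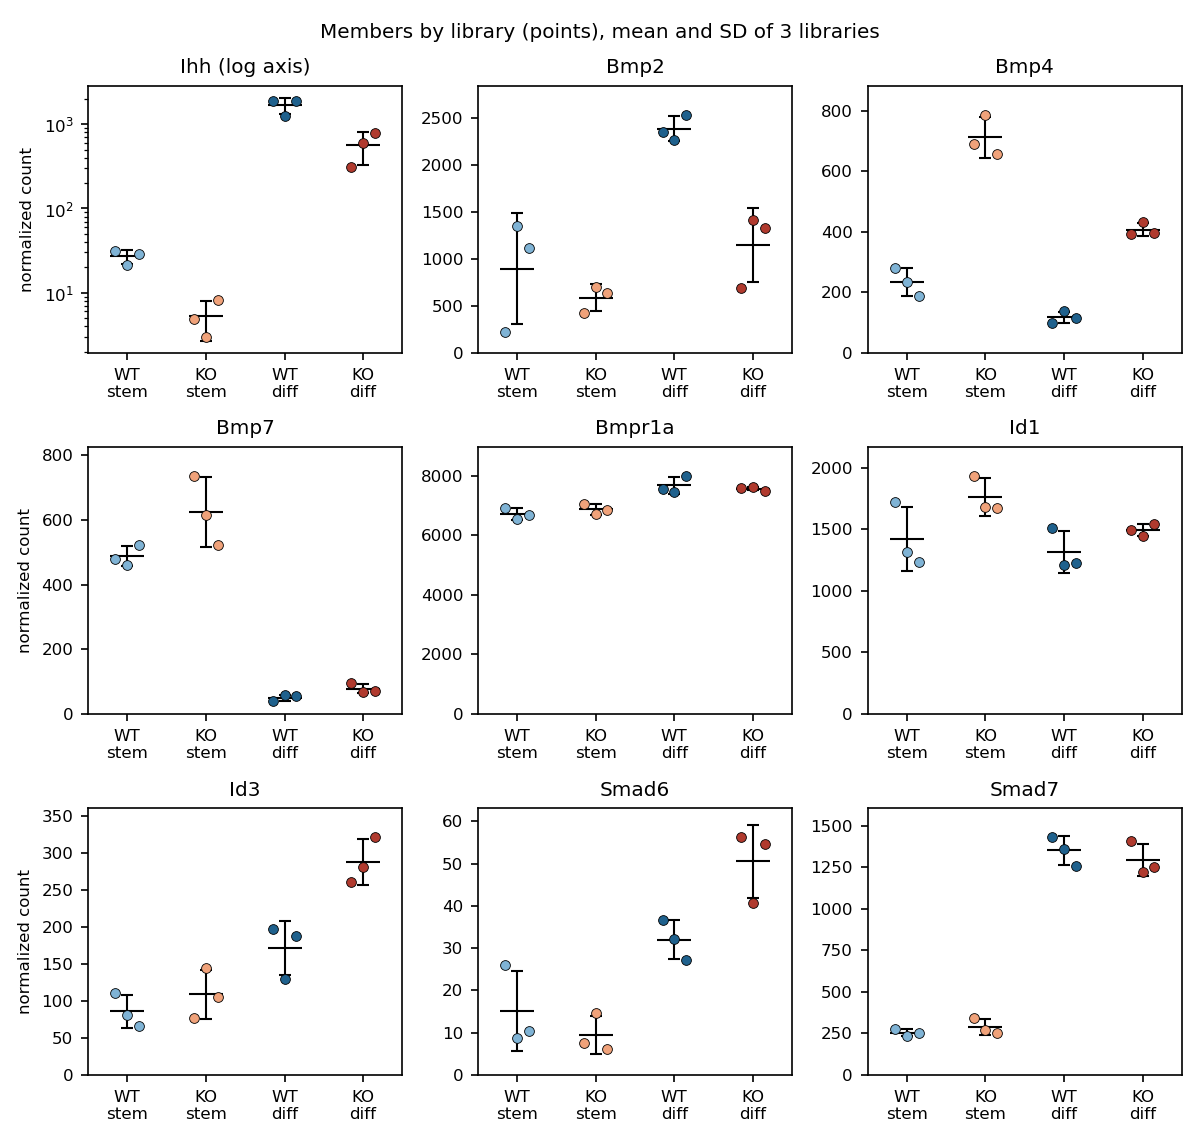
Normalised count of the 9 tested genes in each library (points), with the mean and SD of the 3 libraries of a group (bars). The axis of Ihh is logarithmic and the others start at 0. Ihh is lower and Bmp4 higher in KO in both conditions, and WT stem library 1 stands apart for Bmp2.

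The epithelial BMP ligands moved in different directions. Bmp4 was higher in KO in both conditions and fell after removal of Wnt-3A, Bmp7 fell most with differentiation, and Bmp2 rose with differentiation in WT.
Bmp4 encodes a secreted ligand best known from the mesenchyme beneath the crypts. Its normalised counts were 280, 233 and 188 in WT stem and 691, 787 and 658 in KO stem. In differentiated organoids they were 99.2, 137 and 116 in WT and 392, 433 and 396 in KO. The groups did not overlap in either condition, and even the lowest KO differentiated library stood above the highest WT stem library.
In KO the mean was 3.05-fold higher in stem (712 against 234, log2 change 1.62 ± 0.16, adjusted p = 0.000228) and 3.47-fold higher in differentiated organoids (407 against 117, 1.80 ± 0.16, adjusted p = 0.000106). Differentiation lowered it by a log2 change of −0.98 ± 0.16 in WT (adjusted p = 0.000156) and −0.80 ± 0.16 in KO (adjusted p = 0.000823). These calls too were kept in every alternative, and without both libraries with fibroblast transcripts the KO difference in stem was 1.81 ± 0.17 (adjusted p = 0.000609). Among WT stem libraries Bmp4 was highest in the one with the most fibroblast transcripts. The summed count of the 14 fibroblast and muscle markers was 94.1 to 108 in KO differentiated and 119 to 170 in WT differentiated libraries, but single markers differed in direction. Pdgfrb stood at 11.4, 21.4 and 32.0 in KO and 95.4, 81.2 and 95.4 in WT, whereas Vim (40.4, 27.8 and 38.2 against 28.2, 10.7 and 20.4) and Col1a1 (35.0, 26.7 and 24.5 against 18.3, 13.1 and 9.09) had the higher mean in KO, as Bmp4 did. Vim and Col1a1 did not pass the threshold (adjusted p = 0.796 and 0.732), Pdgfrb did (0.00178), and the median log2 change of these 3 tested markers was 0.89. Col1a2, Col3a1, Dcn, Lum and Foxl1 had no reads in any differentiated library. The part of these markers in the Bmp4 difference was not tested. An 89 bp stretch of the Bmp4 exons is shared with Gm15217, which had no reads.

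Bmp2 (ENSMUSG00000027358, chromosome 2, 133552159 to 133562885, plus strand) is a BMP ligand made by mature cells of the intestinal surface. It was found at 225, 1350 and 1114 in WT stem and at 425, 700 and 636 in KO stem. WT stem library 1, the library with the most fibroblast transcripts, was the lowest of all 12, and the other WT stem libraries were the highest of the 6 stem libraries. In differentiated organoids the values were 2350, 2268 and 2533 in WT and 692, 1411 and 1330 in KO, with every WT library above every KO library.
The comparisons of Bmp2 differed with and without this library. With it, KO against WT gave a log2 change of −0.28 ± 0.55 in stem (95% interval −1.48 to 0.92, adjusted p = 0.79) and −1.13 ± 0.55 in differentiated organoids (−2.32 to 0.07, adjusted p = 0.146). Without it, the change was −1.09 ± 0.29 in stem (adjusted p = 0.0405) and −1.13 ± 0.26 in differentiated organoids (adjusted p = 0.00721), and with only the differentiated groups in the fit, which leaves that library out too, the adjusted p was 0.0295. Leaving out KO differentiated library 1 instead, the lowest of its group, gave −0.80 ± 0.59 in differentiated organoids (adjusted p = 0.401). Over all alternatives the adjusted p of the differentiated difference lay between 0.00721 and 0.401.
Differentiation raised Bmp2 in WT by a log2 change of 1.77 ± 0.55 (adjusted p = 0.0119), or 0.96 ± 0.29 without WT stem library 1 (adjusted p = 0.0113). In KO the change was 0.93 ± 0.55 (−0.27 to 2.12, adjusted p = 0.153), and 0.93 ± 0.26 without that library (adjusted p = 0.00743). Genes most like Bmp2 over the 12 libraries were Cidec (r = 0.989), Sipa1l1 (r = 0.988) and Ankrd37 (r = 0.986).

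Bmp7 (ENSMUSG00000008999, chromosome 2, 172868012 to 172940321, minus strand) is a ligand that can pair with Bmp2 or Bmp4. Its counts were 481, 461 and 522 in WT stem and 737, 616 and 522 in KO stem, where the lowest KO value lay just above the highest WT value. In differentiated organoids they were 40.4, 57.3 and 54.5 in WT and 96.0, 68.4 and 71.6 in KO. All differentiated libraries stood far below all stem libraries. The level fell 9.61-fold in WT (log2 change −3.25 ± 0.18, adjusted p = 2.68e-08) and 7.95-fold in KO (−2.98 ± 0.18, adjusted p = 8.81e-08). KO against WT gave 0.34 ± 0.18 in stem (adjusted p = 0.269) and a rise of 0.62 ± 0.18 in differentiated organoids (adjusted p = 0.0274). The latter call was lost in 5 of 23 alternatives, among them without WT differentiated library 1 (adjusted p = 0.101), WT differentiated library 3 (0.0527) or KO differentiated library 1 (0.108), and with quantile normalisation (0.0707).

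Because 2 ligands moved in opposite directions, the balance of Bmp2 to Bmp4 was computed per library from counts per kb of exon. This ratio was chosen after the values were seen and is given as a description with no test. It was 0.507, 3.67 and 3.74 in WT stem, 0.388, 0.563 and 0.612 in KO stem, 14.98, 10.4 and 13.8 in WT differentiated, and 1.11, 2.06 and 2.12 in KO differentiated. Within the differentiated condition every WT library stood above every KO library, and in stem the WT library with fibroblast transcripts fell among the KO values. Of the summed counts per kb of Bmp2, Bmp4 and Bmp7, Bmp2 made up 89.4% to 92.4% in WT differentiated and 49.5% to 65.8% in KO differentiated. Bmp4 made up 6.17% to 8.56% in WT differentiated and 31.0% to 44.4% in KO differentiated. The sum of the 3 ligands per kb was 713 to 778 in WT differentiated and 393 to 607 in KO differentiated. Other BMP ligands are not part of this sum. Bmp8b had normalised counts, not per kb, of 7637 to 8702 in WT differentiated and 5838 to 6814 in KO differentiated.

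**Figure D2:**
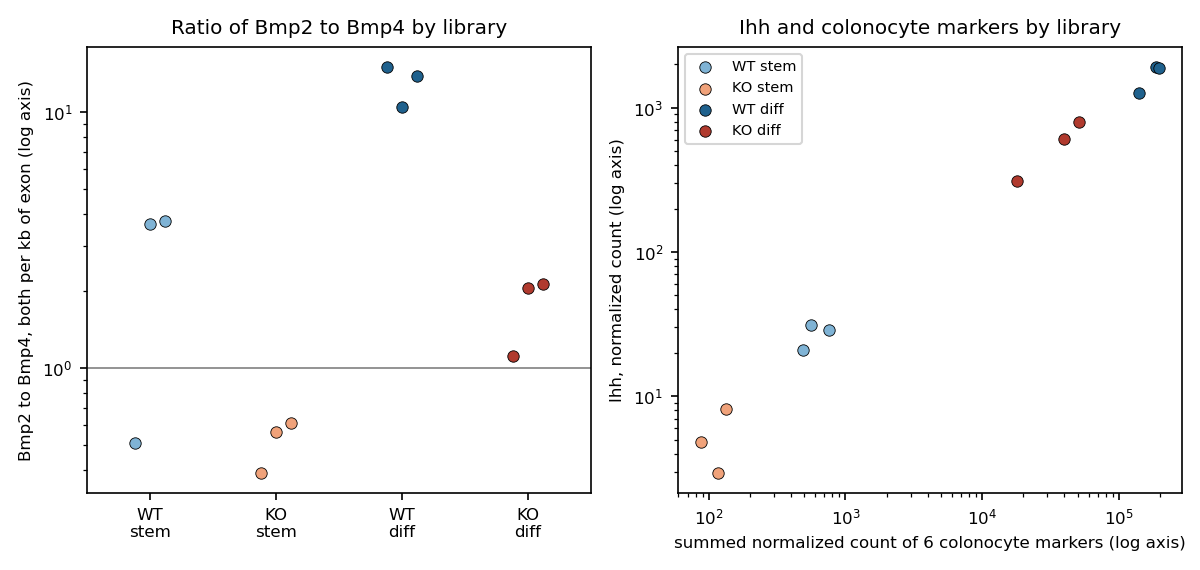
Left, the ratio of Bmp2 to Bmp4, both per kb of exon, in each library on a log axis, with a line at equal levels. Right, the normalised count of Ihh against the summed normalised count of 6 colonocyte markers, one point per library, on log axes. Bmp2 exceeded Bmp4 in all 6 differentiated libraries and in WT stem libraries 2 and 3, and the groups lie in the order KO stem, WT stem, KO differentiated, WT differentiated on both axes of the right panel.

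Bmpr1a (ENSMUSG00000021796, chromosome 14, 34410734 to 34503341, minus strand), a type I BMP receptor, was high and nearly constant. Counts were 6931, 6548 and 6666 in WT stem, 7053, 6703 and 6856 in KO stem, 7551, 7460 and 8002 in WT differentiated, and 7601, 7606 and 7496 in KO differentiated. Neither KO comparison passed the threshold, and the 95% intervals of the log2 change were −0.07 to 0.14 in stem and −0.12 to 0.08 in differentiated organoids. The small rises with differentiation were 0.19 ± 0.05 in WT (adjusted p = 0.00303) and 0.14 ± 0.05 in KO (adjusted p = 0.0199). The call in KO was lost with TMM scaling (adjusted p = 0.0566), quantile normalisation (0.184) and edgeR (0.066), and without KO stem library 2 (0.073) or KO differentiated library 2 (0.0557). The call in WT was lost with quantile normalisation (0.119). Its exons share 290 bp with Gm17110 on the opposite strand, whose mean count was 0.566.

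The Id genes encode inhibitors of basic helix-loop-helix factors and are direct targets of BMP-activated Smads. Id1 (ENSMUSG00000042745, chromosome 2, 152736251 to 152737410, plus strand) was abundant with little change. Its counts were 1722, 1315 and 1234 in WT stem, 1937, 1678 and 1674 in KO stem, 1511, 1210 and 1224 in WT differentiated, and 1495, 1446 and 1547 in KO differentiated. WT and KO overlapped in both conditions, and WT stem library 1 was the highest of its group. No comparison of Id1 passed the threshold. The log2 change of KO against WT was 0.32 ± 0.13 in stem (95% interval 0.05 to 0.60, adjusted p = 0.146) and 0.19 ± 0.13 in differentiated organoids (−0.08 to 0.47, adjusted p = 0.273).
Without WT stem library 1, the stem difference was 0.47 ± 0.10 with an adjusted p of 0.0203. Differentiated against stem gave −0.11 ± 0.13 in WT (−0.38 to 0.17, adjusted p = 0.46) and −0.23 ± 0.13 in KO (−0.51 to 0.04, adjusted p = 0.119). This KO fall was called in 5 of 24 alternatives. With the replicate number as a block the adjusted p was 0.0349, although the numbers were not shown to pair libraries. Blocks within genotype gave 0.0205. Dropping WT stem library 1 gave 0.0385, and dropping both libraries with fibroblast transcripts gave 0.0419. A fit of only the KO groups gave 0.0274. Genes most like Id1 were Zc3h10 (r = 0.903), Ogfod2 (r = 0.886) and Tlnrd1 (r = 0.878), a weaker likeness than for Ihh or Bmp2.

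Id3 (ENSMUSG00000007872, chromosome 4, 136143497 to 136145755, plus strand) rose with differentiation. Counts were 111, 80.9 and 66.9 in WT stem, 77.6, 145 and 105 in KO stem, 197, 130 and 189 in WT differentiated, and 261, 281 and 322 in KO differentiated. The KO differentiated libraries stood above all others, while the stem groups overlapped. The rise with differentiation was 0.99 ± 0.25 on the log2 scale in WT (adjusted p = 0.00402) and 1.44 ± 0.25 in KO (adjusted p = 0.000371). KO against WT was 0.32 ± 0.25 in stem (adjusted p = 0.466) and 0.76 ± 0.25 in differentiated organoids (adjusted p = 0.0451), and this last call was lost in 11 of 23 alternatives, with an adjusted p of up to 0.149. Per kb of exon, Id3 stood at 3.51% to 4.17% of Id1 in WT stem, 2.59% to 5.58% in KO stem, 6.97% to 9.97% in WT differentiated and 11.3% to 13.5% in KO differentiated.

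Smad6 and Smad7 encode inhibitory Smads, which block type I receptors or their substrates. Both were higher after removal of Wnt-3A. Smad7 (ENSMUSG00000025880, chromosome 18, 75367529 to 75395935, plus strand) stood at 279, 233 and 254 in WT stem, 345, 270 and 250 in KO stem, 1434, 1359 and 1258 in WT differentiated, and 1406, 1221 and 1252 in KO differentiated. Every differentiated library exceeded every stem library, and WT and KO overlapped in both conditions. It rose 5.29-fold in WT (log2 change 2.40 ± 0.12, adjusted p = 1.35e-08) and 4.48-fold in KO (2.17 ± 0.12, adjusted p = 4.77e-08). The KO difference was 0.17 ± 0.12 in stem (adjusted p = 0.429) and −0.06 ± 0.12 in differentiated organoids (95% interval −0.33 to 0.21, adjusted p = 0.732).
Smad6 (ENSMUSG00000036867, chromosome 9, 63953076 to 64022059, minus strand) was scarce, with 6 to 80 reads per library. Normalised counts were 26.1, 8.86 and 10.4 in WT stem, 7.54, 14.7 and 6.11 in KO stem, 36.6, 32.2 and 27.3 in WT differentiated, and 56.4, 40.6 and 54.5 in KO differentiated. The highest WT stem value was again that of library 1. The rise with differentiation was 1.179 ± 0.41 in WT (adjusted p = 0.0208) and 2.37 ± 0.41 in KO (adjusted p = 0.000287). The WT call was lost without WT stem library 2 (adjusted p = 0.0828), WT stem library 3 (0.0711) or WT differentiated library 1 (0.0645), and without WT stem library 1 the rise was 1.63 ± 0.34 (adjusted p = 0.00141). KO against WT gave −0.56 ± 0.41 in stem (adjusted p = 0.423) and 0.64 ± 0.41 in differentiated organoids (adjusted p = 0.264).

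Counted together, 1 of the 9 tested members was higher in KO (Bmp4) and 1 lower (Ihh) in stem organoids, where 3.48% of the 14856 genes tested were called higher and 3.09% lower. The median log2 change was 0.17 over the members and −0.04 over all genes. TMM scaling called 976 genes in this comparison, as the main scaling did, but put 66.9% of them higher in KO in place of 53.0%, while edgeR put 635 of 943 and DESeq2 840 of 1984 higher. In differentiated organoids 3 members were higher in KO (Bmp4, Bmp7 and Id3) and 1 lower (Ihh), beside 13.8% and 13.9% of all genes, with medians of 0.19 and 0.02. With differentiation, 6 members rose in WT (Ihh, Bmp2, Bmpr1a, Id3, Smad6 and Smad7) and 2 fell (Bmp4 and Bmp7), beside 36.3% and 35.9% of all genes, with medians of 0.99 and 0.01. In KO 5 rose, the same genes without Bmp2, and 2 fell, beside 34.1% and 33.6%, with medians of 0.93 and 0.01.
The KO comparisons and the differentiation comparisons share libraries, so whether the KO difference itself changed between conditions was tested as an interaction. None of the 9 members was called, beside 8.7% of all genes called either way. The adjusted p ranged from 0.204 for Smad6 (interaction 1.19 ± 0.57) to 0.679 for Id1. No member had an unadjusted p under 0.05 in limma (0 of 9), beside 4037 of all 14856 genes tested. Both edgeR and DESeq2 called 0 members as well. For Bmp2, called with differentiation in WT and not in KO, the interaction was −0.85 ± 0.77 (adjusted p = 0.514), and −0.03 ± 0.38 without WT stem library 1.

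**Figure D3:**
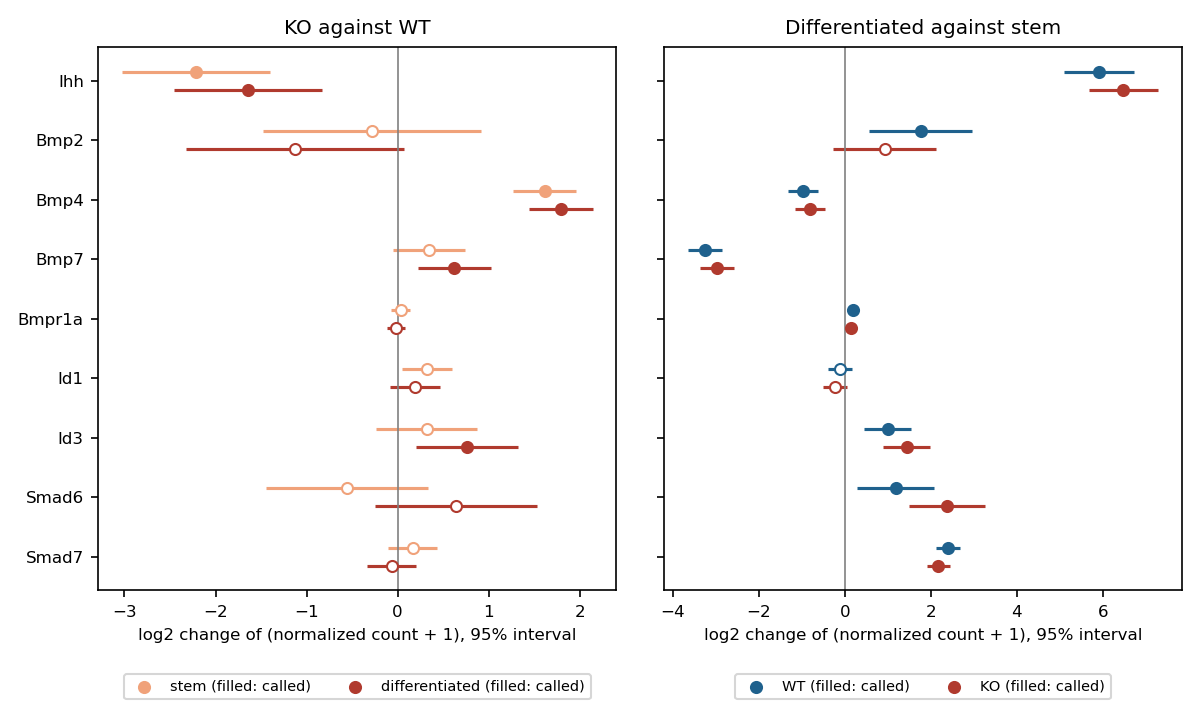
Log2 change of the 9 tested genes with its 95% interval, KO against WT in both conditions (left) and differentiated against stem in both genotypes (right). Filled points passed an adjusted p under 0.05. Ihh and Bmp4 lie on opposite sides of 0 on the left, and the largest change on the right is that of Ihh.

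The levels of the members were also ordered by normalised count per kb of exon. In WT stem the order was Id1 (1227), Bmpr1a (1057), Bmp2 (252), Bmp7 (121), Bmp4 (104), Smad7 (56.4), Id3 (48.1), Ihh (8.85) and Smad6 (4.71). The libraries of Id1 and Bmpr1a, Bmp2 and Bmp7, Bmp7 and Bmp4, Smad7 and Id3, and Ihh and Smad6 overlapped. With all libraries these neighbours thus did not differ beyond their spread. Each overlap rested on the WT stem library with the most fibroblast transcripts, and without it these pairs did not overlap. Bmp2 then stood at 380 and 313 against 115 and 130 for Bmp7, and Ihh at 6.91 and 9.47 against 2.77 and 3.24 for Smad6. Id1 stood at 1134 and 1064 against 1031 and 1050 for Bmpr1a. The order of these neighbours was not tested. In KO stem Bmp4 (317) stood next after Id1 and Bmpr1a, above Bmp2 (165) and Bmp7 (156), which overlapped each other. Smad7 and Id3 overlapped there too, and Ihh (1.74) was the lowest of the 9 tested genes, overlapping Smad6 (2.95).
In WT differentiated organoids Bmpr1a (1208) and Id1 (1134) overlapped, followed by Bmp2 (671), Ihh (552), Smad7 (299), Id3 (95.9), Bmp4 (52.2), Bmp7 (12.6) and Smad6 (9.997). Bmp7 and Smad6 overlapped as well. In KO differentiated organoids the order was Id1 (1290), Bmpr1a (1192), Bmp2 (322), Smad7 (286), Ihh (187), Bmp4 (181), Id3 (161), Bmp7 (19.6) and Smad6 (15.8). There Bmp2 overlapped Smad7, Ihh overlapped Bmp4, Bmp4 overlapped Id3 and Bmp7 overlapped Smad6. Ihh moved from near the bottom of the order to the middle with differentiation in both genotypes.

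**Figure D4:**
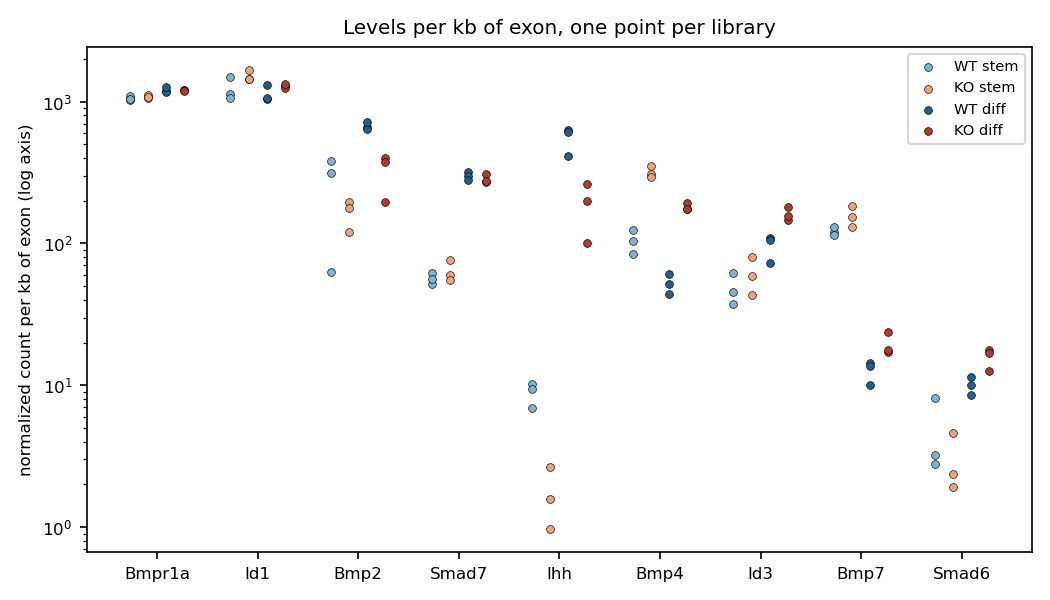
Normalised count per kb of exon of the 9 tested genes on a log axis, one point per library and one colour per group. The group means of Bmpr1a run from 1057 to 1208 per kb and those of Id1 from 1134 to 1520, whereas those of Ihh run from 1.74 to 552.

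The other genes of the pathways were taken from 6 lists, of which 84 genes were in the table and 57 were tested. In stem organoids 6 of 57 were higher in KO and 1 lower (median log2 change 0.08), beside 3.48% and 3.09% of all genes. In differentiated organoids 14 were higher and 8 lower (0.23), beside 13.8% and 13.9%. With differentiation 26 rose and 15 fell in WT (0.26), beside 36.3% and 35.9% of all genes, and 27 rose and 11 fell in KO (0.31), beside 34.1% and 33.6%. Without WT stem library 1 these counts were 7 higher and 2 lower in KO stem, 16 and 9 in KO differentiated organoids, 26 and 14 with differentiation in WT, and 32 and 13 in KO. They come from another fit, to which the shares of all genes above do not belong. When libraries were left out, 363 to 1497 of all genes were called between genotypes in stem and 2233 to 5699 in differentiated organoids. Whether the counts of the lists only follow those of all genes was not tested.

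Of the other Hedgehog genes, 9 of 17 were tested. In the differentiated condition 5 were higher in KO and none lower by limma, edgeR and DESeq2 alike, with none lower at an unadjusted p under 0.05 (median 0.65), beside 13.8% and 13.9% of all genes. In stem 1 was higher (median 0.07), beside 3.48%. Dhh, the remaining Hedgehog ligand, had counts of 9.78, 6.65 and 6.92 in WT stem and 20.5, 22.7 and 19.3 in KO stem, with no overlap (log2 change 1.33 ± 0.33, adjusted p = 0.0369). In differentiated organoids it stood at 7.63, 10.7 and 20.4 in WT and 56.4, 41.7 and 49.8 in KO (1.95 ± 0.33, adjusted p = 0.00247). Dhh was thus higher in KO in both conditions, in each of which Ihh was lower. Also higher in KO in differentiated organoids were Smo, the transducer of the signal (2328 against 1253, 0.86 ± 0.21, adjusted p = 0.0113), Hhat, which adds a fatty acid to the ligands (214 against 108, 0.98 ± 0.18, adjusted p = 0.00326), and the co-receptor Cdon (594 against 378, 0.65 ± 0.10, adjusted p = 0.00153).
The receptor and target gene Ptch1 was well covered, with means of 2166 in WT stem, 1919 in KO stem, 2261 in WT differentiated and 2498 in KO differentiated. It did not pass the threshold between genotypes (adjusted p = 0.187 and 0.196) and rose with differentiation in KO (0.38 ± 0.08, adjusted p = 0.00105). Gli1, the usual readout of a Hedgehog response, had 3 reads over all 12 libraries, Hhip 1, Gli2 8 and Gli3 16, so these were not tested. Of the counts of Gli2 and Gli3, the highest were 9.78 and 11.4 in WT stem library 1, the library with fibroblast transcripts.

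Of the other BMP ligands and relatives, 13 of 18 were tested. In KO 4 were higher and none lower in stem by each of limma, edgeR and DESeq2, with none lower at an unadjusted p under 0.05 (median 0.40), beside 3.48% and 3.09% of all genes. In differentiated organoids 5 were higher and 3 lower (0.76), beside 13.8% and 13.9%. Tgfb3, a TGF-beta ligand, stood at 303, 156 and 187 in WT stem and 646, 619 and 512 in KO stem (1.51 ± 0.25, adjusted p = 0.00582). In differentiated organoids it was 22.9, 16.7 and 27.3 in WT and 178, 136 and 128 in KO (2.68 ± 0.25, adjusted p = 0.000126), so it was higher in KO without overlap in both conditions, as Bmp4 was. Tgfb2 was higher in KO in both conditions too (1.53 ± 0.26, adjusted p = 0.00668, and 1.62 ± 0.26, adjusted p = 0.00211).
Gdf10, a relative of Bmp3, was higher in KO stem (196, 142 and 163 against 21.2, 66.5 and 28.9 in WT, 2.23 ± 0.45, adjusted p = 0.015). After removal of Wnt-3A it had no reads in the 3 WT libraries and stood at 0, 1.07 and 1.36 in KO. Bmp8a was also called higher in KO stem, but it has the near-identical copy Bmp8b, so its reads may be split and the value is uncertain. Inhba, a subunit of activin, rose with differentiation from a mean of 26.9 to 179 in WT (2.98 ± 0.53, adjusted p = 0.00034, or 3.63 ± 0.43 without WT stem library 1) and from 41.4 to 502 in KO (3.68 ± 0.53, adjusted p = 8.1e-05). Bmp1, a protease and no ligand of the family, was higher in KO differentiated organoids (1158 against 481, 1.177 ± 0.38, adjusted p = 0.0421).

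Among the other receptors and co-receptors, 12 of 13 were tested. In differentiated organoids 1 was higher and 2 were lower in KO (median 0.18), beside 13.8% and 13.9% of all genes, and in stem 1 was higher (0.03), beside 3.48%. Rgma, a BMP co-receptor, was higher in KO in both conditions (26.1 against 5.94 in stem, 1.91 ± 0.38, adjusted p = 0.0151, and 23.3 against 5.53 in differentiated organoids, 1.83 ± 0.38, adjusted p = 0.00652). The activin receptors Acvr1b (−0.49 ± 0.10, adjusted p = 0.00544) and Acvr2a (−0.38 ± 0.08, adjusted p = 0.00777) were lower in KO differentiated organoids. With differentiation 5 receptors rose and 2 fell in each genotype, a share of rises near that of all genes (36.3% in WT and 34.1% in KO). Acvr1, another type I BMP receptor, rose from 1121 to 3194 in WT (1.51 ± 0.11, adjusted p = 1.59e-07) and from 1103 to 3676 in KO (1.72 ± 0.11, adjusted p = 8.98e-08), beside 0.19 and 0.14 for Bmpr1a.

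Of the BMP antagonists, 8 of 14 were tested, and in stem organoids 0 were called between genotypes by limma, edgeR or DESeq2, with 0 at an unadjusted p under 0.05. In stem, limma called 3.48% of all genes higher and 3.09% lower. Of all 14856 genes tested, 3658 had an unadjusted p under 0.05 there. In differentiated organoids 2 were higher and 1 lower in KO (median 0.26), beside 13.8% and 13.9% of all genes. Nbl1, a secreted antagonist, stood at 848, 860 and 660 in WT stem and 812, 835 and 721 in KO stem, and rose to 5852, 5722 and 5122 in WT and 2290, 3076 and 2948 in KO. The differentiated groups did not overlap (−1.02 ± 0.13, adjusted p = 0.000631), and the rise was smaller in KO by 1.02 ± 0.18 on the log2 scale, with an interaction adjusted p of 0.0129. Fst, which binds activins and some BMPs, rose in both genotypes (2.88 ± 0.61, adjusted p = 0.00113 in WT and 4.39 ± 0.61, adjusted p = 5.49e-05 in KO), and the value in WT stem library 1 was 58.7 against 7.76 and 6.92 in the other WT stem libraries. Without that library the rise of Fst in WT was 3.82 ± 0.25 (adjusted p = 2.01e-07). Fstl3 was higher in KO differentiated organoids (221 against 94.3, 1.13 ± 0.30, adjusted p = 0.0176). Grem1, an antagonist of the mesenchyme around crypts, had a count of 117 in WT stem library 1, a count of 2.04 in the third KO stem library and no reads in the 10 others.

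Of the other Smads and their regulators, 11 of 12 were tested, and 9 rose and none fell with differentiation in each genotype by limma (median 0.52 in WT and 0.45 in KO), beside rises of 36.3% and 34.1% and falls of 35.9% and 33.6% of all genes. In WT 1 fell at an unadjusted p under 0.05 and by DESeq2, and none by edgeR, while in KO none fell by any of these. Without WT stem library 1, limma called 1 lower in WT. Skil, a repressor of Smad transcription and itself a target of TGF-beta, rose from 1662 to 5708 in WT (1.78 ± 0.05, adjusted p = 4.37e-10) and from 1437 to 5466 in KO (1.93 ± 0.05, adjusted p = 1.41e-09). Smurf1, a ubiquitin ligase for Smads, rose by 1.23 ± 0.10 in WT (adjusted p = 3.95e-07) and 1.16 ± 0.10 in KO (adjusted p = 9.71e-07). Smad1, one of the Smads that carry the BMP signal, was among the 9 (0.88 ± 0.09, adjusted p = 3.18e-06 in WT and 0.86 ± 0.09, adjusted p = 5.22e-06 in KO), and was named here after its values were seen. Between genotypes, Skil was called lower in KO stem (−0.21 ± 0.05, adjusted p = 0.0401) by limma, whereas edgeR called no gene of this list lower there, and in differentiated organoids Tgif1 was higher (0.26 ± 0.09, adjusted p = 0.0427) and Ppm1a and Smurf2 lower, by −0.25 ± 0.05 and −0.22 ± 0.06.

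Of the other BMP target genes, 4 of 10 were tested, and limma called none between genotypes (medians 0.46 in stem and 0.27 in differentiated organoids). Of all genes, 3.48% were called higher and 3.09% lower in stem, and 13.8% and 13.9% in differentiated organoids. With 4 genes, none called cannot be told from these shares. At an unadjusted p under 0.05 there were 3 in stem and 1 in differentiated organoids, beside 3658 and 6011 of all 14856 genes tested. Between genotypes edgeR called none of them, and DESeq2 called 1 in stem and none in differentiated organoids. With differentiation 1 rose and 2 fell in WT, and 1 rose and 1 fell in KO, beside 36.3% and 35.9% of all genes in WT and 34.1% and 33.6% in KO. Msx1, a homeobox target of BMP, fell in WT (190 to 74.2, −1.37 ± 0.21, adjusted p = 8.52e-05) and in KO (275 to 104, −1.41 ± 0.21, adjusted p = 8.62e-05), whereas Id3 rose. Id2 was called lower in WT (598 to 395, −0.57 ± 0.20, adjusted p = 0.0256), with stem counts of 797 in library 1 and 479 and 518 in the others, and this call was lost without library 1 (−0.34 ± 0.17, adjusted p = 0.101). Tbx3 rose in WT (842 to 1219, 0.56 ± 0.14, adjusted p = 0.00328), and Zfp423 rose in KO (4.49 to 31.1, 2.50 ± 0.76, adjusted p = 0.0118).

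**Figure D5:**
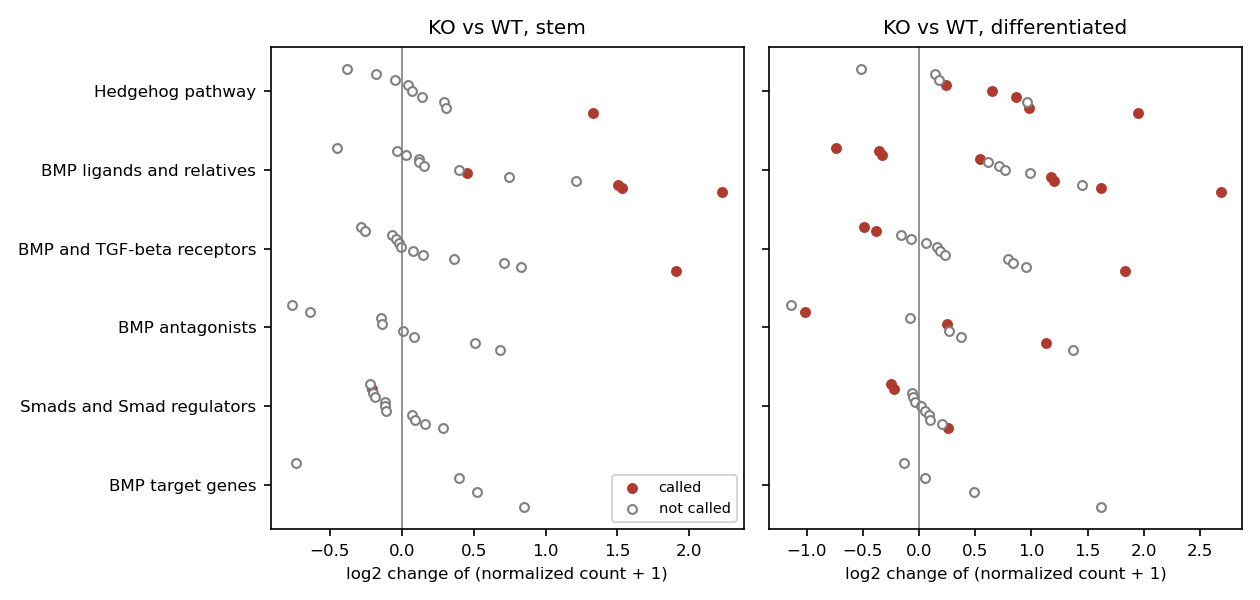
Log2 change of KO against WT for each tested gene of the 6 pathway lists, without the members, in stem (left) and differentiated organoids (right). Filled points passed an adjusted p under 0.05. In differentiated organoids 5 Hedgehog genes lie to the right of 0 as called, and no BMP target gene is called in either panel.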

How the data were processed

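Total RNA of 12 organoid libraries was sequenced. The deposited table holds 1 signal value per Ensembl gene and library, a gene count that the authors divided by 1 scaling factor per library. The submitters' processing notes name GRCm38, Bowtie2, RSEM 1.2.11 and DESeq2 1.18.1. The annotation, the filters and the use of strand are not given in the sources used here, so overlapping genes on opposite strands cannot be told apart. All 12 value columns matched a sample title. Of the values, 100% were whole multiples of 1 step per library within 0.05 of a read, so reads were recovered (25.1 to 99.0 M per library). Floors of 3 reads cover counting error only.

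Symbols and exon lengths came from GENCODE vM21, which matched 99.3% of identifiers, and promoters from RefSeq, whose table held 5 of the 10 members. Genes with at least 10 normalised counts in at least 3 libraries (14856) were fitted on log2(value + 1), a scale that understates changes of low genes, with limma 3.58.1 in R 4.3.3, as 4 group means with a mean-variance trend. Tests were two-sided, with Benjamini-Hochberg adjustment over all genes tested, and a call was an adjusted p under 0.05. Folds are ratios of mean normalised counts. The members, gene lists and tests were chosen with earlier results of these data known. From each pathway list and comparison, up to 4 called genes with the largest change and a group mean of at least 20 could be named, besides others given for coverage or level (Ptch1, Gli1, Gli2, Gli3, Hhip, Grem1). The method was tested on simulated data.

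Alternatives were pseudocounts of 0.5 and 5, no filter, a mean of at least 50, TMM factors, quantile normalisation, only the groups compared, the replicate number as a block (over all libraries or within genotype), edgeR 4.0.16 and DESeq2 1.42.0 on recovered reads, and each library left out. Leaving out both libraries with fibroblast transcripts, and repeating the pathway lists without WT stem library 1, were added after seeing the data. Deviations of KO stem and KO differentiated libraries with the same number correlated at 0.191 to 0.286. For WT stem and WT differentiated libraries the correlations were 0.055 to 0.145. Library 1 of WT stem and library 1 of KO differentiated, of different genotypes, correlated at 0.201. These values therefore cannot show whether numbers pair libraries, and the block was kept as an alternative only. No 2 libraries held identical values.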

Additional observations from a re-analysis of the deposited data

How the results depend on the processing

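Of 1048 repeats of member values over all comparisons and alternatives, 997 kept their direction and their side of the threshold, 25 lost a call, 15 gained one and 11 changed sign. The KO and differentiation calls of Ihh and Bmp4 were kept in every alternative run. Sign changes concerned uncalled values: Bmpr1a in KO against WT differentiated organoids became 0.01 with TMM factors (0.0062), edgeR (0.0061) or without WT differentiated library 3 (0.0118, lowest −0.0387 when libraries were left out) and 0.0856 with quantile normalisation. Bmp2 in KO against WT stem became 0.196 without WT stem library 2 and 0.0576 without WT stem library 3, over a range from −1.1677 when libraries were left out. Id1 with differentiation in WT became 0.038 (lowest −0.2105) without WT stem library 1, and also without both libraries with fibroblast transcripts. Without both, Smad6 in KO against WT stem became 0.127 (lowest −0.8951), and the interactions of Bmp2 and Bmp4 became 0.0426 (lowest −1.3212) and −0.0165 (highest 0.3252). Members called between genotypes numbered 2 in stem, with 2 to 4 when libraries were left out (4 without WT stem library 1), and 4 in differentiated organoids, with 2 under quantile normalisation and 2 to 5 when libraries were left out (2 without WT differentiated library 1 or 3 or KO differentiated library 1). Over all genes, 976 calls between genotypes in stem became 297 with only the groups compared, 1486 with the replicate block, 1984 with DESeq2 and 363 to 1497 when libraries were left out (the lowest was without KO stem library 1, it was 401 without library 2 of that group and 495 when WT stem library 2 was dropped, and 1497 without both libraries with fibroblast transcripts). The 4103 calls in differentiated organoids became 2233 to 5699 when libraries were left out. The 1292 interaction calls became 750 without a filter, 2141 with the replicate block, 2442 with DESeq2 and 342 to 1603 when libraries were left out. The cause of these shifts was not tested.

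The replicate block, whose numbers were not shown to pair libraries, changed the call of Id1 in KO with differentiation, given above. It also called Id1 in KO against WT stem (adjusted p = 0.0477) and lost Id3 in KO against WT differentiated organoids. Every WT stem library correlated best with the WT differentiated library of its own number. Every KO stem library did so too, across genotypes, so this match cannot show a pairing. The low counts of Ihh and Smad6 in stem organoids limit the precision of their differences there.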

Other observations

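Between culture conditions the KO difference of 6 of the 57 tested pathway genes changed past the threshold of the interaction, 2 upwards and 4 downwards, with a median interaction of 0.12 over the 57, beside 8.7% of all genes called either way, a share near that of these genes. Besides Nbl1, these were Bmp3, Bmp8a, Tgfb1, Acvr1b and Tgif1. Bmp3, a ligand that opposes other BMPs, had means of 477 in WT stem, 528 in KO stem, 2276 in WT differentiated and 1392 in KO differentiated, an interaction of −0.89 ± 0.24 on the log2 scale (adjusted p = 0.0414). Tgfb1 had means of 432 in WT stem, 442 in KO stem, 817 in WT differentiated and 1191 in KO differentiated, an interaction of 0.51 ± 0.14 (adjusted p = 0.0463), which was not called without WT stem library 1 (0.44 ± 0.13, adjusted p = 0.0589). For Acvr1b the interaction was −0.63 ± 0.14 (adjusted p = 0.0227), for Tgif1 it was 0.48 ± 0.12 (adjusted p = 0.0352), and for Bmp8a, whose reads may be split with Bmp8b, it was −0.82 ± 0.17 (adjusted p = 0.0195).

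Bmp7 as a share of the summed Bmp2, Bmp4 and Bmp7 counts per kb of exon was 19.2% to 38.9% in WT stem, 21.6% to 30.1% in KO stem, 1.41% to 2.00% in WT differentiated and 2.81% to 6.08% in KO differentiated. Markers of intestinal stem cells (Lgr5, Ascl2, Axin2, Olfm4 and Smoc2), summed, stood at 9176 to 16838 in WT stem and 11845 to 15105 in KO stem. In differentiated organoids the sum was 3929 to 4271 in WT and 6997 to 8645 in KO. Of the 4 tested, 1 was called lower in KO stem and 4 higher in KO differentiated, beside 3.09% and 13.8% of all genes. Ascl2 stood at 859 to 1186 in WT stem and 546 to 667 in KO stem. Olfm4 did not pass 4.43 in any library. The goblet cell markers (Muc2, Tff3, Fcgbp and Spdef), summed, stood at 12160 to 16490 in WT differentiated and 6705 to 17470 in KO differentiated. Fcgbp alone stood at 10380 to 13812 and 5865 to 15199. In stem 2 of the 4 were called lower in KO (median log2 change −0.98), beside 3.09% of all genes. In differentiated organoids 0 were called, beside 13.8% higher and 13.9% lower. The enteroendocrine markers, summed, stood at 528 to 968 in WT differentiated and 160 to 490 in KO differentiated.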
